A study of Drosophila melanogaster with 2 samples.

Results

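The genes for the proteins of the cytoplasmic ribosome were examined for binding of CG13123-GFP in embryos of the fruit fly Drosophila melanogaster. A gene was a member when its symbol in the Ensembl annotation of genome build dm6 starts with RpL or RpS, with or without a P for the stalk proteins, followed by a digit, and sta, the gene for a small subunit protein with its own name, was added. The rule gave 93 genes of 18277 annotated genes, all of them protein coding, with 54 of the large subunit and 39 of the small subunit. The assay was ChIP-seq, which precipitates sheared chromatin with an antibody and sequences the DNA, on whole embryos of both sexes, pooled, at 0 to 24 h of age. The flies were a stable transgenic line that makes CG13123 with green fluorescent protein (GFP) fused to its C terminus, and the labels differ on the antibody, with a description that says anti-GFP and an antibody field that says CG13123. The 2 samples, biological replicates 2 and 3, form 1 group with no second condition, and chromatin of untagged flies was not analysed here.

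The ribosome reads messenger RNA in its small subunit and joins amino acids in its large subunit, and each subunit is built in the nucleolus from ribosomal RNA and many proteins that are needed in equal amounts. Embryos start with ribosomes laid down by the mother and make their own later. In flies the loss of 1 copy of many of these genes gives the Minute phenotype of slow growth and short bristles. Promoters of fly ribosomal protein genes typically start transcription in a run of pyrimidines called the TCT initiator, in place of the usual initiator, and often carry the DNA replication element, bound by DREF, or motif 1, bound by M1BP.

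The promoter bases of members that the results turn on are given first. Each line runs 5′ to 3′ on the gene's strand from 100 bases before to 20 bases after the annotated start nearest the peak summit, in the Release 6 assembly (dm6) from RefSeq. Capitals mark the DNA replication element TATCGATA, the motif 1 core GGTCACACT, the words CGCAGC and CAACTTC on either strand, and the TCT core CTTT where its C lies within 10 bases of the start on the gene's strand. CGCAGC and CAACTTC were picked from these same promoters after their values were seen. The first group holds strongly bound members that each carry CGCAGC or CAACTTC, so it does not stand for all members of high signal. RpS27, RpL7, RpL23A, RpL24, RpL32 and RpS20, also of high signal and not shown, hold neither word in the same stretch. RpL34b lies at chr3R:9401207-9401326 on the minus strand, RpS21 at chr2L:2855970-2856089 on the plus strand and RpL28 at chr3L:3222941-3223060 on the minus strand. RpS28b lies at chrX:9554523-9554642, RpS19a at chrX:16637794-16637913 and RpLP0 at chr3L:22075992-22076111, all on the plus strand.
RpL34b: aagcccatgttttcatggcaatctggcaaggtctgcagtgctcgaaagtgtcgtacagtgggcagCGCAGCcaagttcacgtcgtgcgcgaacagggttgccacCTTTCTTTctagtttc
RpS21: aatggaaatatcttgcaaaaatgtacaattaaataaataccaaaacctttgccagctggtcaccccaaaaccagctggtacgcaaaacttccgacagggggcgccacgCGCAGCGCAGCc
RpL28: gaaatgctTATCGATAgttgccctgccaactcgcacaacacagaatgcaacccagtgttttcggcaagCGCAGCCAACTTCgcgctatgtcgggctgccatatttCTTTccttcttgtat
RpS28b: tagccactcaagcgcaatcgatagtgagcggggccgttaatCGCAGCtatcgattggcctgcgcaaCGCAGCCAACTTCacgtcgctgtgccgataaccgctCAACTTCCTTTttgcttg
RpS19a: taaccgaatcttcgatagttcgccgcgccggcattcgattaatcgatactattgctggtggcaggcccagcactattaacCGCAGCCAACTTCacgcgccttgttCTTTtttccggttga
RpLP0: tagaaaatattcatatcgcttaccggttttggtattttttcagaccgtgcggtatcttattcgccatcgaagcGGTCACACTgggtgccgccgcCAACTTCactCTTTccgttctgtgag

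The second group shows RpL34a, the weaker copy of the RpL34 pair, and RpL7A and RpS14a, which did not reach the stringent peak list. RpL34a lies at chr3R:26059248-26059367 on the minus strand, RpL7A at chrX:6533237-6533356 on the minus strand and RpS14a at chrX:7933642-7933761 on the plus strand. RpL28, RpS28b and RpS19a carry CGCAGC directly followed by CAACTTC upstream of the start, which none of these 3 holds, while a CTTT at the start stands in RpL7A and RpS14a as in all but RpS21 of the first group.
RpL34a: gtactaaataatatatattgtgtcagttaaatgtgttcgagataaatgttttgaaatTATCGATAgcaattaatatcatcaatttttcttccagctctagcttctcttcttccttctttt
RpL7A: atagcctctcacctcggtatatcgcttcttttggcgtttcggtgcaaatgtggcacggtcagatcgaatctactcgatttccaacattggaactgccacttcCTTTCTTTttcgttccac
RpS14a: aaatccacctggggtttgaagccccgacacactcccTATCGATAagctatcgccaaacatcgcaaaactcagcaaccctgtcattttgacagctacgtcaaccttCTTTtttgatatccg

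CG13123-GFP was bound at most ribosomal protein gene promoters, and 4 of the 10 strongest promoter peaks of the whole genome lay at them. A gene was tested when a peak summit of the relaxed list of both replicates, which holds peaks and background, lay within 500 bp of one of its transcription start sites. It was called bound when the same held in the list of peaks past a threshold of the irreproducible discovery rate (IDR), a measure built on peak ranks in replicates. Bound members had the same rank in this list and in the relaxed list of both replicates, down to RpL18 at 2672 of 2704. Bound thus stands for a high joint signal here, and not for like ranks in both replicates. Of the 82 members tested, 52 were bound, a share of 63.4% (95% Wilson interval 52.6 to 73.0%), against 25.8% of all 8330 genes tested. Members held 9 of the 100 strongest promoter peaks, the first 10 included, and 54 of all 1520. The members' share of the strong peaks thus fell with each step down the ranking, at 40.0% of the first 10, 9.00% of the first 100 and 3.55% of all.

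Each replicate alone gave a like share. With as many of its own highest peaks as the IDR list holds, replicate 2 had 52 of 80 tested members bound (65.0%, interval 54.1 to 74.5%), against 25.7% of all genes. Replicate 3 had 54 of 86 (62.8%, interval 52.2 to 72.3%), against 26.9% of all genes. Members bound in the IDR list were bound in both replicates' own lists in 48 of 52 cases. The intervals cover counting error only, since the genes are not independent replicates of an embryo collection.

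**Figure D1:**
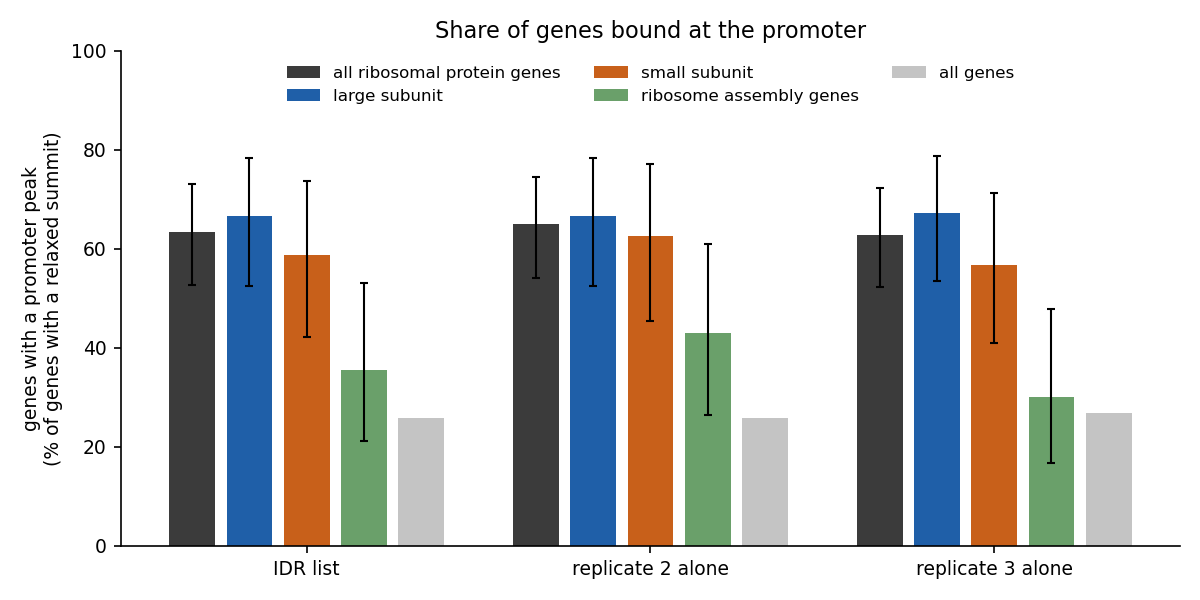
Share of tested genes with a promoter peak, in percent, for all ribosomal protein genes, the large subunit, the small subunit, ribosome assembly genes and all genes, in the IDR list and in each replicate's own highest peaks. Bars are shares and whiskers 95% Wilson intervals. The ribosomal protein gene bars stand at 62.8 to 65.0%, above the bars of all genes at 25.7 to 26.9%, in all 3 settings.

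RpL34b, whose product belongs to the large subunit, had the highest peak of the genome. Its deposited peak signal was 1992 in the IDR list, 1242 in replicate 2 and 761 in replicate 3, rank 1 in each list. RpS21, of the small subunit, followed with 1548 in the IDR list, 934 in replicate 2 and 611 in replicate 3, rank 3 in each. RpS27, also of the small subunit, had 1188, 733 and 459, in the same order of lists. RpL28, of the large subunit and host of 5 annotated small nucleolar RNA (snoRNA) genes, had 1087, 634 and 452. The 4 stood apart from the other members in both replicates: the next, RpL27A, had 554 in the IDR list, 331 in replicate 2 and 225 in replicate 3.

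The next members formed a second tier. RpS28b had 501 in the IDR list, 295 in replicate 2 and 207 in replicate 3. RpL13 had 396, 241 and 158, and RpL7 had 375, 244 and 131, in the same order. These 4, from RpL27A to RpL7, kept the order of the IDR list in replicate 3, while in replicate 2 RpL7 was just above RpL13. RpL23A had 256, 151 and 107, and RpS19a had 248, 169 and 84.9. RpLP0, the base of the ribosomal stalk, had 209.9 in the IDR list, 125 in replicate 2 and 83.7 in replicate 3, and RpL13A had 201, 114 and 89.9. RpL24, RpL32 and RpS20 had 194 each in the IDR list, with 126, 104 and 137 in replicate 2 and 66.9, 91.8 and 58.3 in replicate 3. Neighbours in this tier changed places between the replicates, and their order is not fixed by these lists.

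The remaining bound members formed a long tail toward the end of the IDR list. The median IDR signal of the 52 bound members was 136, with quartiles of 99.0 and 196, against a median of 122 with quartiles of 94.6 and 175 over all 2152 bound genes. Apart from the few highest, their signals thus lay in the range of other bound genes. The lowest 3 were RpS23 with 83.5, RpS15Aa with 76.7 and RpL18 with 76.1, near the lowest signal of the IDR list, 75.5. The 3 highest that were not bound were RpL7A with 70.7, RpL6 with 69.3 and RpS7 with 68.5 in the relaxed list, so members on both sides of the limit differ little. Their replicates differed more than that: RpL18 had 61.9 in replicate 2 and 25.4 in replicate 3, while RpS7 had 25.8 in replicate 2 and 42.6 in replicate 3.

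**Figure D2:**
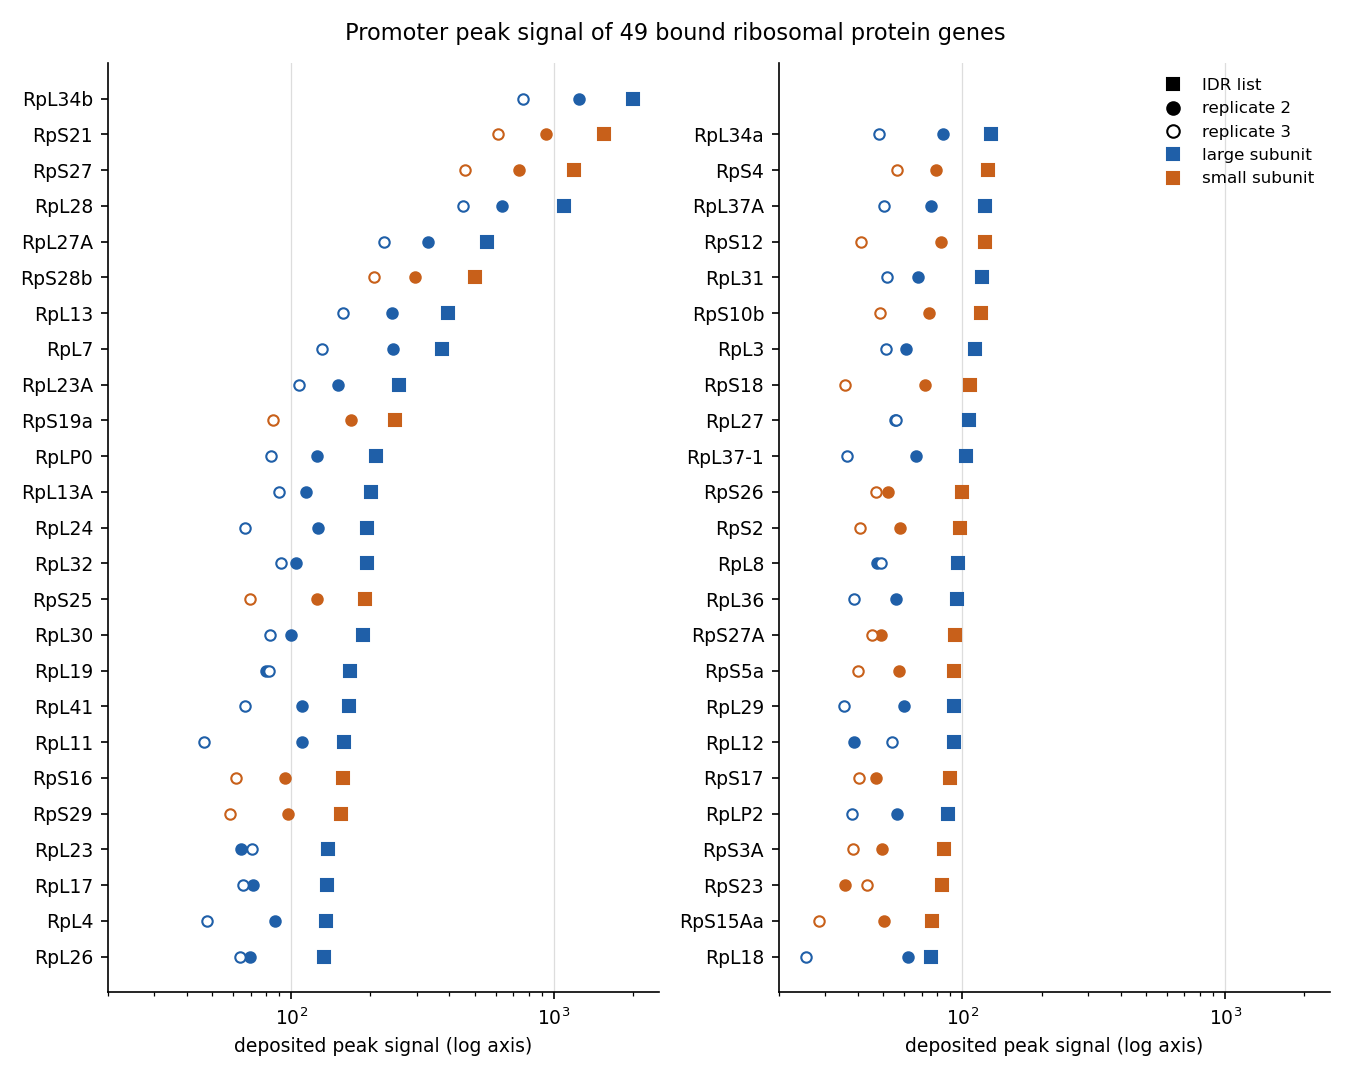
Deposited peak signal of each of the 49 bound members with no other gene's start nearer the summit, on a log axis, highest at the top left and lowest at the bottom right. Squares are the IDR list, filled circles replicate 2, open circles replicate 3, blue the large and orange the small subunit. RpL34b, RpS21, RpS27 and RpL28 stand above 1000 in the IDR list, and the members of the right panel, from RpL34a down, are at 129 or below.

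All 52 bound members had a relaxed promoter summit in both replicates. Across them the signals of replicates 2 and 3 ran together, with Spearman's rho of 0.81 and Pearson's r of 0.94 on the log2 scale (n = 52 genes, which share both libraries), given as a description. The summits of both replicates lay a median of 23.0 bp apart and within 100 bp of each other in 48 of 52. Other bound genes had rho 0.74, a median gap of 30 bp and 87.9% within 100 bp. Of the 30 members tested and not bound, 25 had a summit in both replicates, with rho −0.30, a median gap of 115 bp and 12 of 25 within 100 bp. The IDR list held bound members at the same ranks as the relaxed list of both replicates, so it selects bound members for high and unbound members for low joint signal. This agreement and its contrast are therefore in large part set by the selection. The signal in replicate 2 was a median of 1.48 times that in replicate 3 for bound members, against 1.39 times for other bound genes, and the scale of the signal is not given.

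Some members were unequal in the replicates. Among bound members the ratio of replicate 2 to replicate 3 ran from 0.716 for RpL12, with 38.6 and 53.9, to 2.44 for RpL18, with 61.9 and 25.4. Among unbound members it ran from 0.471 for RpL38, with 18.0 and 38.2, to 4.30 for RpS24, with 42.1 and 9.78. RpS15, RpS5b and RpL7-like had a promoter summit in replicate 3 and none in replicate 2, with signals of 16.4, 15.4 and 18.1. The members of the highest tier were close to the overall ratio in comparison. RpS23, RpL23, RpL19, RpL27 and RpL8 were, like RpL12, higher in replicate 3, although most bound members were higher in replicate 2.

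**Figure D3:**
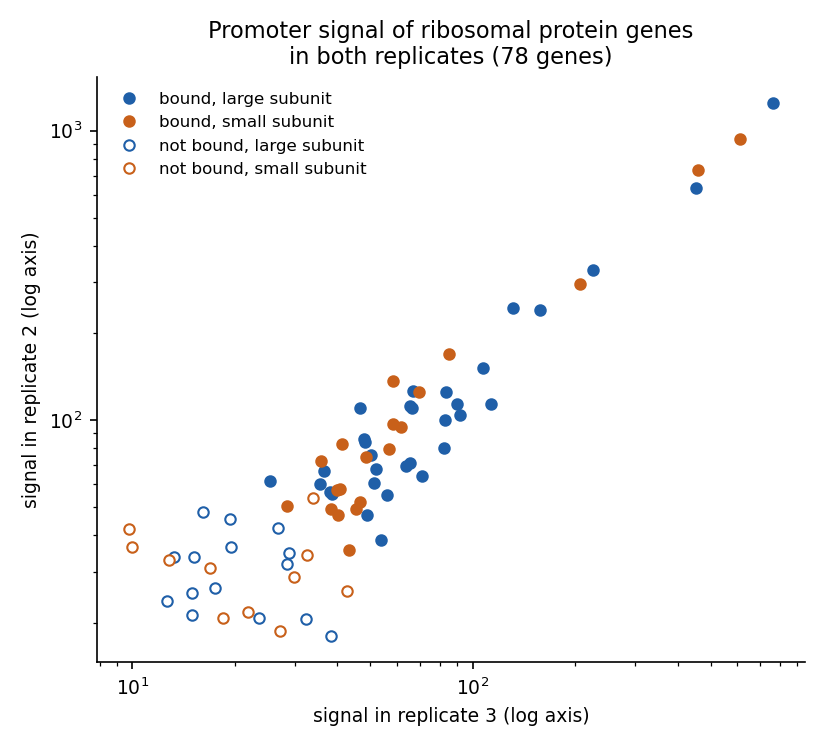
Signal in replicate 2 against replicate 3 for the 78 members with a promoter summit in both, on log axes. Filled points are bound members, open points members that are not bound, sta among them, blue the large and orange the small subunit. Bound members rise along 1 line up to RpL34b, while the open points scatter at or below 53.9 in replicate 2.

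Both subunits were bound, and their difference was within the counting error. The large subunit had 32 of 48 tested members bound (66.7%, interval 52.5 to 78.3%) and the small subunit 20 of 34 (58.8%, interval 42.2 to 73.6%), a difference of 7.84 percentage points with a 95% interval from −12.6 to 28.1. Without replicate 3 it was 4.17 points (32 of 48 against 20 of 32) and without replicate 2 it was 10.6. Median IDR signals were 148 (quartiles 111 and 203) for the large and 119.9 (quartiles 93.7 and 191) for the small subunit. The difference of 28.4 was small beside these quartile ranges, and it turned to −3.59 among the IDR peaks above the list's median signal. Replicate 2's own highest peaks gave 8.24 and replicate 3's gave 18.6. The stalk of the large subunit was mixed: RpLP0 and RpLP2, with 209.9 and 87.8, were bound, while RpLP1, with 57.7 in the relaxed list, was not. The members made as fusions with ubiquitin were also mixed, with RpS27A bound at 93.8, at a peak as near to the start of Ip259, and RpL40 not bound at 24.1 in the relaxed list. RpS6, the target of the growth-regulated S6 kinase, was not bound, with 50.9 in the relaxed list.

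In most families of members with like symbols, 1 copy held the peak. The families go by symbol, and those of RpL7, RpL24 and RpLP0 pair a member with a -like gene. The 93 members include 13 such families with 27 copies. One copy was bound in 10 families, both copies in 1 and no copy in 2. In the families of RpL22, RpL37, RpS10, RpS15A and RpS19 only 1 copy was tested, so both could not be called bound. In all, 12 of the 20 tested copies were bound, beside 40 of the 62 tested members outside families. The other copies were mostly low in, or absent from, even the relaxed list.

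In the RpL34 pair RpL34b had 1992 and RpL34a 129 in the IDR list, with 1242 and 84.0 in replicate 2 and 761 and 48.1 in replicate 3. This was the family with both copies bound, and the higher copy led in both replicates. RpS28b had 501, against 38.2 for RpS28a in the relaxed list and no promoter summit for RpS28-like in the list of both replicates. RpS19a had 248 and RpS10b 118, while the other copies, RpS19b and RpS10a, had no summit there. RpL22 had 174, RpL37-1 had 103 and RpS15Aa had 76.7, with none for RpL22-like, RpL37-2 and RpS15Ab. RpS5a had 93.2, against 21.5 for RpS5b. RpS5b, RpS19b, RpS10a and RpL22-like are known in flies for expression largely in the germline, so the bound copy of each of these families was the broadly expressed one.

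The copies that end in -like in the RpL7, RpL24 and RpLP0 families are related to yeast proteins that assemble the large subunit. They were not bound, with 30.1 for RpL7-like, 49.2 for RpL24-like and 64.9 for RpLP0-like in the relaxed list, against 375 for RpL7, 194 for RpL24 and 209.9 for RpLP0. The relaxed summit of RpLP0-like lay 13 bp from the start of 14-3-3zeta, nearer than its own start at 74 bp. The families with no copy bound were RpS14, with RpS14a at 57.3 and RpS14b at 48.8, and RpL10A, with RpL10Ab at 42.7 and no summit for RpL10Aa. RpS14a and RpS14b stand side by side on the X chromosome. No source used here says how reads that fit several copies were counted. Within 200 bp of the starts, at most 4.57% of the stretches of 30 bases occurred again in the genome in any member, and in 90 of 93 members none did.

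**Figure D4:**
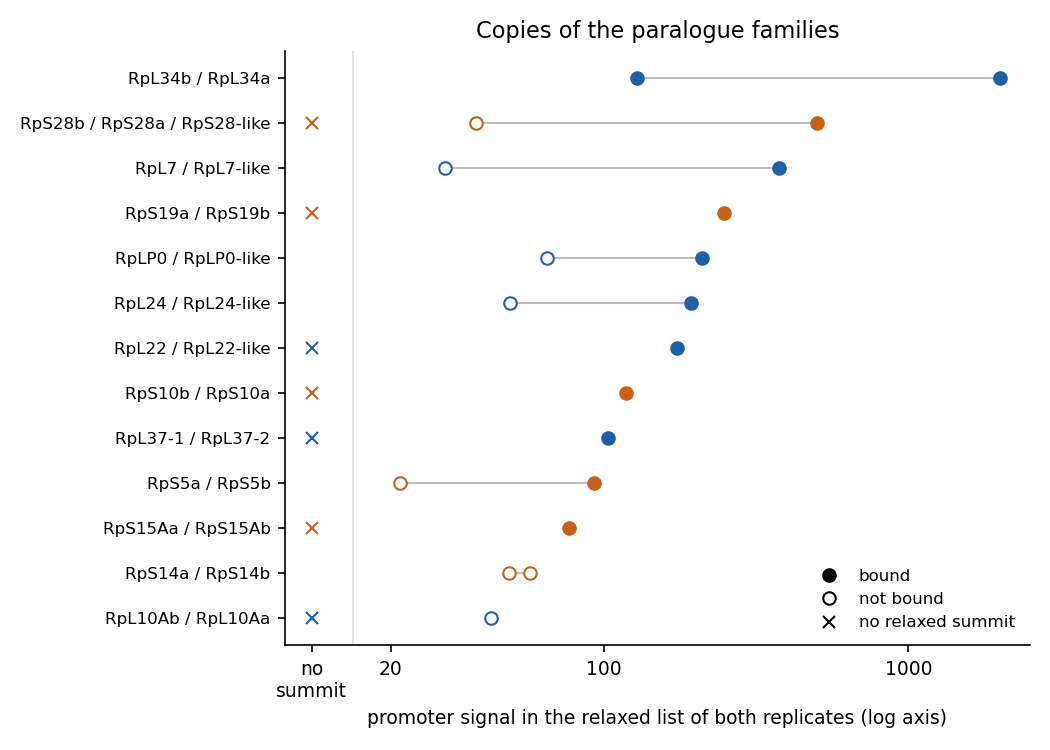
Promoter signal of each copy of the 13 paralogue families in the relaxed list of both replicates, on a log axis. Filled points are bound copies, open points copies that are not bound, and crosses copies with no summit within 500 bp of a start; copies are named from the highest signal to the lowest. In 10 families 1 filled point stands alone, and RpL34b and RpL34a, at 1992 and 129, are both filled.

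The list of both replicates held no promoter summit for 11 members: RpL10Aa, RpL14, RpL15, RpL22-like, RpL36A, RpL37-2, RpS10a, RpS15Ab, RpS19b, RpS28-like and sta. Of these, sta nevertheless had a peak at its start in both replicates' own lists and RpL14 in that of replicate 3. For sta the summit lay 24 bp from the start in replicate 2, with a signal of 53.9 and rank 2088, and 13 bp away in replicate 3, with 33.9 and rank 2648. RpL14 had 82.8, rank 444, in replicate 3 with the summit 62 bp from the start, and in replicate 2 the nearest summit was 3209 bp away. The relaxed list of both replicates had its nearest summit 1598 bp from sta and 3210 bp from RpL14. Among all genes, 1720 had a promoter peak among the highest peaks of both replicates, and 21 of them, sta included, lacked one in the relaxed list of both. The other 9 had a promoter summit in at most 1 replicate, the highest being RpL36A with 32.2 in replicate 2.

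The peaks at ribosomal protein genes sat on the start site, closer than those of other bound genes, while other unbound genes were not measured. The summit was a median of 39.0 bp from the nearest start in bound members and 34.5 bp in unbound members, against 146 bp in the 1952 other bound protein-coding genes. It lay within 100 bp in 48 of 52 bound members (92.3%) and 26 of 30 unbound members (86.7%), against 30.6% of the other bound genes. In bound members 80.8% of the summits were upstream of the start, against 89.2%. More annotated starts per gene, a median of 2 in bound members and 1 in the other bound genes, make a near start more likely. Among genes with 1 annotated start the medians were 74.0 bp for 22 bound members and 146 bp for 1124 others. From each gene's most upstream start they were 43.5 bp and 157 bp. The unbound members shared the position with the bound ones, so it did not separate the 2 groups.

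**Figure D5:**
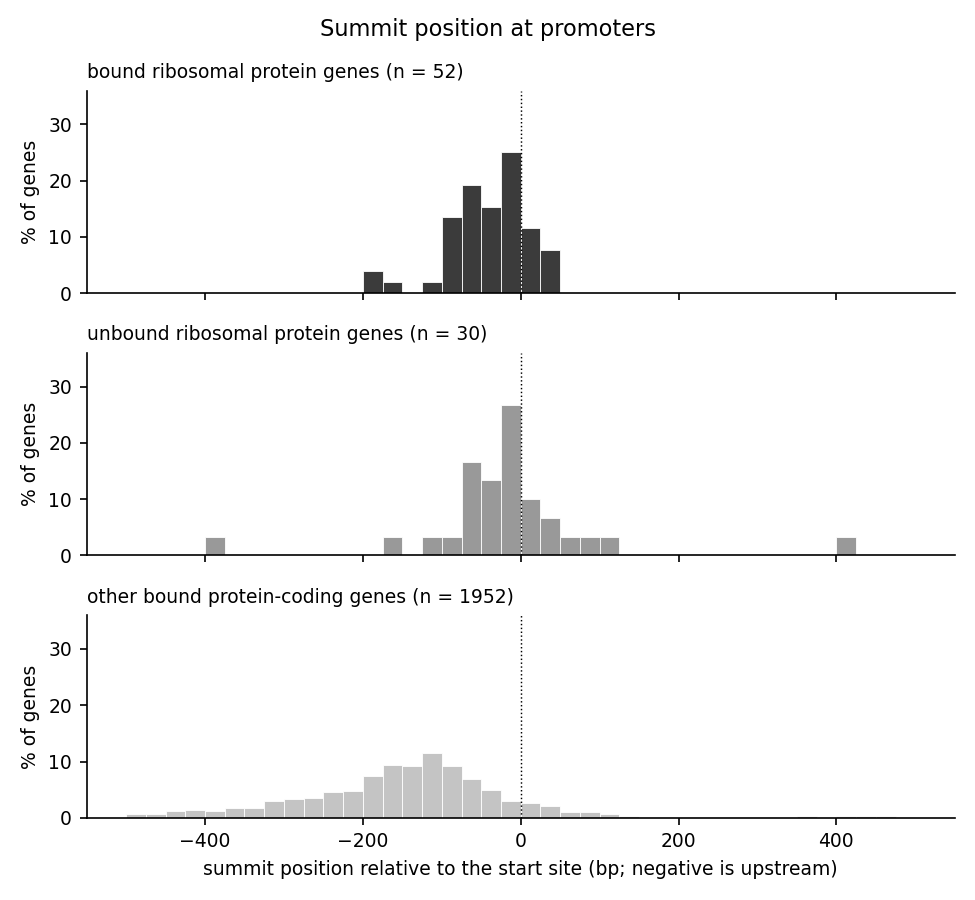
Position of the summit relative to the nearest start site, in bp with upstream negative, as percent of genes in bins of 25 bp, for bound members, unbound members and other bound protein-coding genes. Both member panels peak at the start, with medians of 39.0 and 34.5 bp from it, while the other bound genes spread around a point upstream, with a median distance of 146 bp.

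Few of these peaks lay nearer to another gene. Another gene's start was nearer to the summit in 3 of 52 bound members (5.77%, interval 1.98 to 15.6%), against 32.3% of the other bound coding genes. Without replicate 3 it was 6 of 52 (11.5%), and without replicate 2 it was 3 of 54 (5.56%). Among the 3 in the IDR list were RpS20, whose summit lay 182 bp upstream of its start and 151 bp from that of CG17271, and RpL22, with the noncoding lncRNA:CR44966 at 59 bp. The peak of these 3 cannot be assigned to the member alone, nor can that of RpS27A, whose start and that of Ip259 both lay 83 bp from the summit. A start of another coding gene within 500 bp of the summit was found in 26 of 52 bound members (50%) and 8 of 30 unbound members (26.7%), against 63.5% of the other bound genes and 38.0% of the 5023 other unbound coding genes. The share was higher in bound than in unbound genes in both comparisons, though the intervals of bound and unbound members, 36.9 to 63.1% and 14.2 to 44.4%, overlap.

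Of these neighbours, 25 of 26 ran in the opposite direction, as did those of 7 of 8 unbound members with a coding neighbour. Among other bound coding genes with such a neighbour it was 1161 of 1240, so the direction was not particular to members. Some of the neighbours act in related processes, and how common this is at other genes was not counted. RpL28 faces the translation initiation factor gene eIF1, 304 bp from the summit, and RpL13 faces Dref, which encodes the DNA replication element factor, at 78 bp. RpL36 faces Mybbp1A, a nucleolar protein gene, at 244 bp, and RpS27 faces Nup37, a nuclear pore gene, at 134 bp. The start of CG8132 was 207 bp from the summit of RpL34b and that of CG3104 281 bp from the summit of RpS21. In each of these pairs the member's start was the nearer one. Of the other bound members, 26 had no coding neighbour, RpL27A and RpS28b among them. SnoRNA genes lay inside 17 of 52 bound members (32.7%) and 8 of 30 unbound members (26.7%), and the share in other genes was not counted.

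Bound members were spread over the chromosomes. On arm 2L 10 of 17 tested members were bound, on 2R 12 of 18, on 3L 9 of 12, on 3R 11 of 20 and on the X 9 of 14, while the only member on chromosome 4, RpS3A, was bound. In each case the members' share exceeded that of all genes of the arm, which ran from 10.5% on chromosome 4 to 29.0% on 3R.

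Core promoter elements known for ribosomal protein genes were counted at bound and unbound members. CTTT, the TCT core, had its C within 10 bases of the start in 31 of 52 bound members (59.6%, interval 46.1 to 71.8%) and 22 of 30 unbound members (73.3%, interval 55.6 to 85.8%), against 10.7% of other bound and 11.4% of other unbound coding genes. The difference between bound and unbound members was −13.7 percentage points (95% interval −32.1 to 7.86), with −19.0 in replicate 2's own list and −4.51 in replicate 3's. With the C within 3 bases of the start, CTTT was in 5 of 52 bound members (9.62%) and 8 of 30 unbound members (26.7%), a difference of −17.1 points (interval −35.6 to −0.416). The DNA replication element stood within 100 bp of the summit, on either strand, in 26.9% of bound and 23.3% of unbound members, against 9.02% and 7.61% of the other genes. The motif 1 core did in 11.5% and 10% of members, against 2.87% and 5.40%. Except for the motif 1 core in unbound members (interval 3.46 to 25.6%), the intervals of members lie above the shares of the other genes. TATAAA, part of the TATA box, was found in 23.1% of bound and 23.3% of unbound members, against 41.0% of other bound and 31.1% of other unbound genes. GAGAG, the core of the GAGA element, was found in 7.69% and 10%, against 17.3% and 19.4%. The intervals of members include the other genes' shares for GAGAG, and for TATAAA in unbound members (11.8 to 40.9%). The TATAAA interval of bound members (13.7 to 36.1%) lies below the share of other bound genes. Windows of bound members had a median of 43.0% G and C, against 33.8% in other bound genes. Summits lay a median of 39.0 bp from the start in bound members and 146 bp in other bound genes. Windows around them thus cover different parts of the promoter. The part of base content and place in the shares was not tested.

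ACAGTG and ACACTG were searched because they had been found frequent in these same peaks. ACAGTG stood in 10 of 52 bound members (19.2%, interval 10.8 to 31.9%) and 1 of 30 unbound members (3.33%, interval 0.591 to 16.7%), against 16.6% of other bound and 12.1% of other unbound genes. ACACTG stood in 32.7% and 16.7% of members, against 20.4% and 15.7% of other genes. ACACTG can overlap the end of the motif 1 core. ACAGTG is visible in the RpL34b promoter given at the opening, upstream of CGCAGC. The interval of bound members for ACAGTG includes the share of other bound genes, while that for ACACTG, 21.5 to 46.2%, starts just above it.

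The largest difference between bound and unbound members was in a word chosen after seeing the bases. Among all 2080 words of 6 bases, strands merged, CGCAGC had the largest difference, with 18 of 52 bound members (34.6%, interval 23.2 to 48.2%) and 1 of 30 unbound members (3.33%), the exception being RpS6. Other bound coding genes held it in 7.63% and other unbound ones in 9.93%. CAACTTC, which follows it directly in RpL28, RpS28b and RpS19a, was in 10 of 52 bound members (19.2%) and 0 of 30 unbound ones (interval up to 11.4%), against 2.15% and 2.27% of other genes. As the top word of 2080, CGCAGC had to differ between these small groups to some degree, so the size of its difference is a description of these promoters alone. The windows of members were also richer in G and C, with a median of 43.0% in bound and 40.0% in unbound members, against 33.8% and 37.3% in other genes. They also lay nearer the start than those of other bound genes. The part of either in the word's share was not tested.

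The words were concentrated at the members of highest signal. Both were picked from these same promoters after their values were seen. The counts and medians by signal therefore describe these promoters and cannot test a link of word and signal. Of the 10 bound members of highest signal, 9 held CGCAGC, 7 held CAACTTC and all 10 held at least 1 of them, RpS27, RpL27A, RpL7 and RpL23A included. Of the highest 15, 12 held at least 1, against 9 of the other 37. The median IDR signal was 224 in the 18 bound members with CGCAGC and 122 in the 34 without, and 385 in the 10 with CAACTTC and 124 in the 42 without. In other bound genes the medians with and without CGCAGC were 128 and 121, and with and without CAACTTC 137 and 121. These gaps were smaller than those in the members. The DNA replication element gave no higher median among bound members, with 131 in the 14 with it and 137 in the 38 without. The motif 1 core had 166 in the 6 with it and 136 in the 46 without.

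The words were searched within 100 bp of the summit, so the search limits their distances. CGCAGC was centred a median of 22.5 bp from the summit in bound members, from 1.5 to 85.5 bp, and a median of 30 bp upstream of the start. With upstream negative, its place ran from −124 bp in RpS3A to 35.5 bp in RpL7. CAACTTC was centred 31.5 bp from the summit and 4 bp upstream of the start. The DNA replication element, searched the same way, was centred a median of 17.0 bp from the summit. Both words occurred in 7 bound members, among them RpL28, RpS28b and RpS19a of the promoters given at the opening. In RpS21 CAACTTC, and in RpS27 CGCAGC, lies outside the 120 bases around the start used for those promoters and within 100 bp of the summit. Among strongly bound members, RpL24, RpL32 and RpS20 held neither word.

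Genes that act in building the ribosome were bound at a lower share than the genes of its proteins. Of 40 listed genes for ribosome assembly and RNA polymerase I, 2 symbols matched no annotated gene and 31 had a relaxed promoter summit. Of these, 11 were bound (35.5%, interval 21.1 to 53.1%), between the 63.4% of the ribosomal protein genes and the 25.8% of all genes, and the interval includes the latter share. The highest was eIF6, which keeps the large subunit from joining too early, with 439 in the IDR list, 249 in replicate 2 and 187 in replicate 3. Ns2 and RIOK1, assembly factors of the large and the small subunit, followed with 205 and 137. Fib, the methyltransferase of the nucleolus, had 128, and Mybbp1A had 95.4 at the peak it shares with RpL36. The RNA polymerase I genes Polr1A and Polr1B were not bound, with 31.4 and 23.0 in the relaxed list.

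Of the genes for factors known at ribosomal protein promoters, Dref and M1BP were bound. Dref had 396, 241 and 158 in the IDR list, replicate 2 and replicate 3, the same peak as RpL13, and M1BP had 153, 98.8 and 59.5. Trf2, whose product takes the place of TBP at TCT promoters, was not bound, with 37.2 in the relaxed list, 13.6 in replicate 2 and 21.3 in replicate 3. Tbp had no promoter summit in the list of both replicates, with 29.0 in replicate 2 and 16.3 in replicate 3.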

How the data were processed

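ChIP-seq of CG13123-GFP was deposited for 2 biological replicates. The labels give a size range of 200 to 800 for the sheared chromatin, with no unit. Per the labels and file lists, the authors called peaks over a control in each replicate and in both together, and the IDR list holds those of both together past the IDR threshold. Aligner, caller, threshold and depth were not given in the sources used here. Control libraries were not analysed here. Each peak carries a signal of unstated scale deposited by the authors, and a deposited −log10 q-value that was not used further. The relaxed lists hold 30000 peaks each and the IDR list 2704. Signals served only to order and describe peaks of the same list.

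Starts came from Ensembl release 115 without transposable elements, and the highest signal of a summit within 500 bp of a start was taken per gene with Python 3.11.15, pandas 2.3.3 and numpy 2.4.6. Coordinates are 1-based on dm6. Without replicate 3 or 2, the other replicate's 2704 highest peaks were used. Shares have 95% Wilson intervals, and the difference of the subunit shares has Newcombe's interval built from them. No test was run, since there is 1 group. Values are given for the 15 members of highest signal, every paralogue copy, the 3 lowest bound and 3 highest unbound members, the neighbours nearer a summit and the members without a summit, apart from a few not reported here. Others were named for their role. Members, lists and words were chosen with earlier results of these data known. Functions were checked on simulated peaks.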

Additional observations from a re-analysis of the deposited data

How the results depend on the processing

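A start window of 200 or 1000 bp, the overlap of intervals, the most upstream start and the removal of the -like genes kept the share of bound members between 61.9 and 65.8%. It was 55.9% of all 93 members and 59.8% with summits counted only where no other start is nearer. Without 1 replicate it was 62.8 to 65.0%. The share of all genes was counted only for the main setting and without 1 replicate, so the shares of the other settings have none beside them. The subunit difference in share ran from 4.17 to 15.6 points over its alternatives, and the CTTT difference from −20.0 to −4.51 points. The IDR peaks above the list's median signal, fewer by construction for any genes, gave 41.5% for members and 16.1% for ribosome assembly genes. These cannot be set against the 25.8% of all genes in the main setting. Among the IDR peaks above the list's median signal the subunit difference in median signal reversed to −3.59, and without 1 replicate it was 8.24 to 18.6. The cause was not tested. With summits counted only where no other start is nearer, 0% of bound members had another start nearer, by construction. A replicate summit within 50 bp of the IDR summit was found in both replicates for 75% of bound members.

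The median summit distance of bound members minus that of other bound coding genes was −106 bp, or −98.0 to −106 bp without 1 replicate. It was −114 bp from the most upstream start, −72.0 bp for genes with 1 start, −129 bp without a coding neighbour, and −71.5 and −126 bp with start windows of 200 and 1000 bp, all chosen after seeing the data. The smaller window cuts off far summits by construction, and otherwise the cause was not tested. The difference in CGCAGC between bound and unbound members stayed between 25.5 and 32.7 percentage points under the alternatives run for it, also chosen after seeing the data. No paired analysis was possible because all samples belong to 1 group. Without read counts, depth and the limit it sets are unknown.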
